A study of Homo sapiens with 8 samples.

Results

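The comparison is of RNA recovered with the J2 antibody against input RNA in SUM159 cells given H3B-8800, a splicing inhibitor whose target is SF3b, the part of the spliceosome that finds branch points. It takes 4 of the 8 libraries of the series, chosen by their labels: J2-enriched and drug treated (2 libraries) and input and drug treated (2 libraries), both after 12 h of drug. SUM159 is a human cell line established from a triple-negative breast cancer, so all libraries share its genome and no allele or transgene differs between groups. The other groups are J2-enriched and input RNA from cells given the vehicle DMSO (2 libraries each), which were used for the spread and for the comparison with vehicle at the end. The duplicates were biological. The labels number the replicates but do not say whether J2 and input libraries of the same number were paired. The drug dose was not given in the sources used here. No library here came from a pull-down with a control antibody, so binding to J2 and binding to the beads cannot be told apart. Of 142224 listed introns, 7287 in 3851 genes had a mean of at least 0.5 reads per 1000000 reads of library depth (RPM) over the 4 drug libraries and were tested. Of 15902 listed genes, 7495 had at least 1 RPM of spliced reads and were tested.

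J2 is a monoclonal antibody that binds double-stranded RNA helices with little regard to their sequence. In human cells such helices form where a transcript folds back on itself, above all where Alu repeats lie in opposite directions, and introns hold many of these repeats. Blocking SF3b leaves introns in RNA that is otherwise processed. Proteins such as RIG-I, PKR and ADAR bind double-stranded RNA in the cytoplasm or nucleus. Here recovery means depth-scaled reads in J2 RNA over those in the input, given as a log2 ratio, so 0 is equal abundance and not absence from the J2 RNA.

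Each library held reads inside introns and reads spliced across them, from polyadenylated RNA. Over all listed introns, the J2 drug libraries held 13062067 and 13783595 reads and the input drug libraries 12679980 and 13562705, out of library depths of 50000000 and 53000000 and of 47000000 and 48000000. The intronic share was 12.7% ± 0.292 (SD, n = 2) in J2 RNA and 11.6% ± 1.96 in the input. An intron of SLCO5A1, which encodes an organic anion transporter family member, and one of HFM1, which encodes a helicase of meiosis, stood apart: they held 25% of all intronic reads in input drug replicate 1, 2.88% in replicate 2, and 0.485% and 0.322% in the J2 drug libraries. Without them the shares were 12.7% ± 0.278 and 10.05% ± 0.0740, with no overlap between groups. An exact permutation test of 2 libraries against 2 cannot fall below p = 0.333 (two-sided), so no test is given for shares. Mesenchymal markers of the line summed to 846 RPM of spliced reads in J2 RNA and 1039 RPM in the input (9 markers). The luminal markers ESR1, PGR, GATA3, FOXA1, EPCAM and CDH1 summed to 2.23 and 2.32 RPM (6 markers, ESR1 and PGR at 0). Other genes used as markers had more reads. The keratin KRT8 had 94.5 and 94.0 RPM in J2 RNA and 82.7 and 89.2 RPM in the input, the keratin KRT18 had 69.9 and 73.6 RPM in J2 RNA and 89.2 and 97.8 RPM in the input, and the macrophage marker CD68 had 5.88 and 6.23 RPM in J2 RNA and 8.62 and 9.46 RPM in the input. The part of other cell types in the results was not tested.

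Short introns show most directly what J2 RNA held more and less of, so 7 of them are printed whole, 3 of those with the highest recovery and the 4 with the lowest. They were chosen among 152 tested introns of at most 150 bases and at least 2 RPM whose sequence could be read from an exon of a GENCODE 29 transcript on GRCh38. Of these 152, 82 were higher and 8 lower in J2 RNA. The capitals mark the GT at the 5′ splice site and the AG at the 3′ splice site, and each line runs 5′ to 3′ in the direction of the gene. Since an annotated exon spans each intron, its reads may belong to that transcript. The first 3 introns were higher in J2 RNA.
CAPN15 intron 11: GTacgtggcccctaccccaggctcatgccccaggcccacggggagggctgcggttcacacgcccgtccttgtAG
KIAA0195 intron 29: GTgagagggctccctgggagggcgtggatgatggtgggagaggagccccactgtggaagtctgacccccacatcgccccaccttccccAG
UBXN1 intron 1: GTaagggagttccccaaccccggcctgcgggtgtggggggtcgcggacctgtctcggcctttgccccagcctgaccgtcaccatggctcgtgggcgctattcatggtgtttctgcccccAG
The next 4 were lower in J2 RNA.
RPS21 intron 5: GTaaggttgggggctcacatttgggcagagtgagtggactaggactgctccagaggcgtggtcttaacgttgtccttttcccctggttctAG
OST4 intron 1: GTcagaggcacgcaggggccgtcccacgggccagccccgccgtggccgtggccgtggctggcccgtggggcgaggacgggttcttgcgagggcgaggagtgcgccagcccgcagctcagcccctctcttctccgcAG
RPL24 intron 1: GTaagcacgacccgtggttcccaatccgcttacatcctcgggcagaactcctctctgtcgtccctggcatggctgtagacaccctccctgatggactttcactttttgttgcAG
MRPL22 intron 1: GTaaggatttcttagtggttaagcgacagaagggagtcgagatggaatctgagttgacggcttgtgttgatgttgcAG

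Among the introns shown as higher, that of CAPN15, a calpain family protease gene (intron 11 of 13, chr16:552531-552604, plus strand, 74 bases, 70.3% GC) had 3.90 and 4.26 RPM in J2 RNA and 0.915 and 0.958 RPM in the input, a log2 ratio of 2.12 ± 0.26 (± SE, here and below). The first intron of UBXN1, a UBX-domain protein (intron 1 of 8, chr11:62678744-62678864, minus strand, 121 bases, 66.9% GC) had 13.2 and 12.3 RPM in J2 RNA and 3.72 and 3.90 RPM in the input (1.74 ± 0.16). In each of these both J2 libraries lay far above both input libraries, and the letters are mostly G and C. The intron of KIAA0195, a transmembrane protein gene (intron 29 of 31, chr17:75498539-75498628, plus strand, 90 bases, 66.7% GC) had 2.84 and 3.66 RPM in J2 RNA and 0.809 and 1.02 RPM in the input (1.83 ± 0.28).

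On the low side, the last intron of RPS21, a ribosomal protein of the small subunit (intron 5 of 5, chr20:62388365-62388456, plus strand, 92 bases, 54.3% GC) had 3.18 and 3.25 RPM in J2 RNA and 15.3 and 18.1 RPM in the input (-2.38 ± 0.15). The first intron of RPL24, a ribosomal protein of the large subunit (intron 1 of 5, chr3:101686558-101686671, minus strand, 114 bases, 55.3% GC) had 34.8 and 30.1 RPM in J2 RNA and 70.8 and 82.0 RPM in the input (-1.23 ± 0.10). Its sequence and those of RPS21 and MRPL22 held less G and C than the 3 higher introns. The first intron of MRPL22, a mitochondrial ribosomal protein (intron 1 of 5, chr5:154941139-154941216, plus strand, 78 bases, 46.2% GC) had 3.22 and 3.57 RPM in J2 RNA and 5.34 and 7.33 RPM in the input (-0.90 ± 0.21). OST4, a subunit of the oligosaccharyltransferase, goes against that order. Its first intron (intron 1 of 2, chr2:27071464-27071600, minus strand, 137 bases, 75.9% GC) had the richest G and C content of the 7 and, by RNAfold, the longest uninterrupted predicted helix, 16 base pairs, and it had 3.56 and 3.92 RPM in J2 RNA and 13.3 and 13.2 RPM in the input (-1.82 ± 0.17).

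Over all introns tested, J2 RNA held more of 1787 introns (24.5% of those tested) and less of 945 (13.0%), by edgeR's quasi-likelihood test with Benjamini-Hochberg adjusted p under 0.05. The median log2 ratio was 0.22, and 1084 of the higher and 663 of the lower introns differed by over 2-fold. The split depends on how libraries are scaled. TMM moved the median to 0.02 and gave 1262 higher and 1355 lower introns, and median-of-ratios scaling moved it to 0.09 and gave 1417 and 1202. Leaving out a library lowered both counts, to 1117 higher introns without input drug replicate 1 and to 513 lower introns without input drug replicate 2. A log2 ratio below about 0.2 therefore has no firm direction, and the introns named as higher or lower lie beyond that unless stated.

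PIP5K1C, a phosphatidylinositol phosphate kinase, had 2.18 and 2.00 RPM in J2 RNA and 0.128 and 0.0417 RPM in the input in intron 9 of 17, chr19:3647387-3648624, a log2 ratio of 4.59 ± 0.46 (edgeR adjusted p = 3.33e-10). Reads in that intron made up 56.9% of its intronic and spliced reads in J2 RNA and 5.43% in the input, where the intron had 6 and 2 reads. SDCCAG3, an endosomal protein gene, had 16.7 and 14.2 RPM in J2 RNA and 1.23 and 1.42 RPM in the input in intron 7 of 8, chr9:136404195-136404630 (3.54 ± 0.19, adjusted p = 8.59e-17). Every J2 library was above every input library in both genes, as the naming rule required. SLC9B2, a sodium/proton exchanger, had 3.28 and 4.92 RPM in J2 RNA and 0.255 and 0.292 RPM in the input in intron 5 of 10, chr4:103047227-103048892 (3.90 ± 0.32). TRIO, a guanine nucleotide exchange factor, had 6.96 and 12.4 RPM in J2 RNA and 1.49 and 1.06 RPM in the input in intron 30 of 56, chr5:14399071-14400962 (2.92 ± 0.25). Both introns overlap an exon of another transcript of the same gene, so these reads may be exonic.

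Of the other named introns on the high side, RNF40, a ligase for histone H2B, had 4.30 and 4.42 RPM in J2 RNA and 0.383 and 0.875 RPM in the input in intron 15 of 17, chr16:30769601-30771832 (2.78 ± 0.30). SMURF2, a ligase of TGF-beta signalling, had 3.72 and 5.21 RPM in J2 RNA and 0.787 and 0.562 RPM in the input in intron 8 of 18, chr17:64578577-64580788 (2.72 ± 0.29). The J2 and input libraries did not overlap in either, as the naming rule required. DKK3, a secreted Dickkopf family protein, had 2.38 and 3.74 RPM in J2 RNA and 0.468 and 0.375 RPM in the input in intron 3 of 7, chr11:11998780-12002299 (2.86 ± 0.30), where another DKK3 exon lies. CDC42BPA, a kinase that acts on the actin cytoskeleton, had 1.20 and 3.04 RPM in J2 RNA and 0.489 and 0.167 RPM in the input in intron 19 of 34, chr1:227069854-227072207 (2.69 ± 0.43), with the widest gap between the J2 duplicates among these introns. LRRC37B, a leucine-rich repeat gene of a family of near-identical copies, had 3.12 and 2.21 RPM in J2 RNA and 0.298 and 0.250 RPM in the input in intron 9 of 11, chr17:32047902-32049101 (3.27 ± 0.35), and its reads may be shared with the copies. PABPC1, the main cytoplasmic poly(A)-binding protein, had 19.1 and 18.4 RPM in J2 RNA and 2.43 and 3.33 RPM in the input in its last intron, 14 of 14 (2.70 ± 0.17), which overlaps another PABPC1 exon, so exonic reads may be among these. The intron made up 30.2% of its intronic and spliced reads in J2 RNA and 63.5% in the input. Both kinds of read may include those of PABPC1 pseudogenes.

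**Figure D1:**
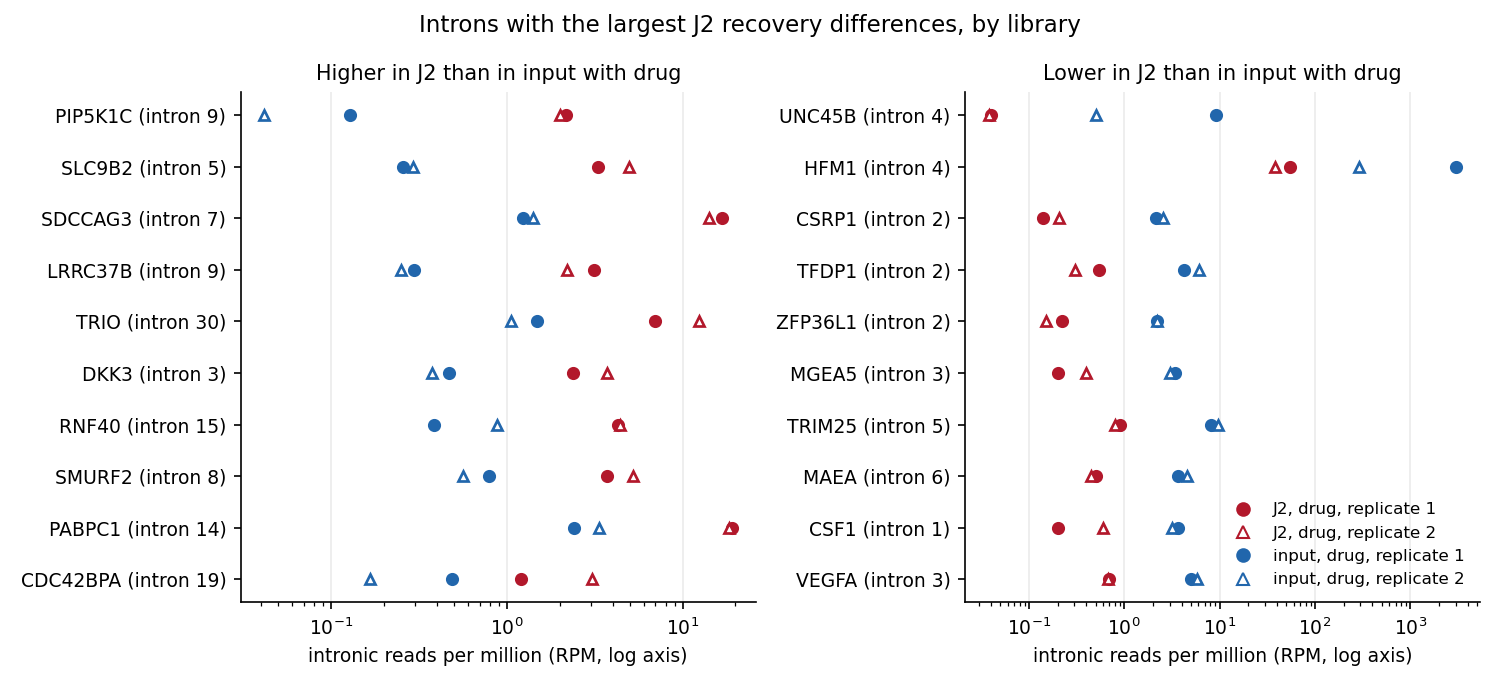
Intronic RPM (log axis) of the 10 introns with the highest (left) and the 10 with the lowest (right) J2 recovery that met the naming rule (free of exons of other genes, 1 intron a gene), with 1 point for each drug library. Red J2 points and blue input points do not overlap in any of the 20 introns, and UNC45B and HFM1 have the widest gap between the 2 input libraries.

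Among the introns J2 RNA held least of, VEGFA, the vascular endothelial growth factor, had 0.700 and 0.679 RPM in J2 RNA and 5.04 and 5.81 RPM in the input in intron 3 of 6, chr6:43777666-43778459 (-2.97 ± 0.21, edgeR adjusted p = 5.27e-14). CSF1, the macrophage colony-stimulating factor, had 0.200 and 0.604 RPM in J2 RNA and 3.66 and 3.19 RPM in the input in intron 1 of 8, chr1:109911063-109914258 (-3.07 ± 0.34). The 2 input libraries lay close together in both and well above the J2 libraries. TRIM25, a ubiquitin ligase of the RIG-I pathway, had 0.900 and 0.792 RPM in J2 RNA and 8.21 and 9.52 RPM in the input in intron 5 of 8, chr17:56895953-56899114 (-3.39 ± 0.21, adjusted p = 3.55e-15). That intron was 15.7% intronic in J2 RNA and 50.6% in the input. MAEA, a subunit of a ubiquitin ligase complex, had 0.50 and 0.453 RPM in J2 RNA and 3.70 and 4.50 RPM in the input in intron 6 of 8, chr4:1332866-1336860 (-3.10 ± 0.31). MGEA5, the enzyme that removes O-GlcNAc from proteins, had 0.200 and 0.396 RPM in J2 RNA and 3.43 and 3.0 RPM in the input in intron 3 of 15, chr10:101810315-101813029 (-3.41 ± 0.38).

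Also on the low side, TFDP1, the dimer partner of E2F factors, had 0.540 and 0.302 RPM in J2 RNA and 4.21 and 6.06 RPM in the input in intron 2 of 11, chr13:113585850-113610995 (-3.61 ± 0.29), an intron with another TFDP1 exon in it. ZFP36L1, which binds AU-rich elements and promotes mRNA decay, had 0.220 and 0.151 RPM in J2 RNA and 2.21 and 2.21 RPM in the input in intron 2 of 2, chr14:68790493-68792881 (-3.56 ± 0.38). That intron overlaps another exon of the gene, so its reads may be exonic. CSRP1, a LIM-domain protein of the cytoskeleton, had 0.140 and 0.208 RPM in J2 RNA and 2.15 and 2.52 RPM in the input in intron 2 of 5, chr1:201490345-201496191 (-3.72 ± 0.40). These 3 had no overlap between J2 and input libraries, as the naming rule required. The most negative ratios were smaller without 1 library. UNC45B, a myosin chaperone of muscle, had 0.0400 and 0.0377 RPM in J2 RNA and 9.15 and 0.50 RPM in the input in intron 4 of 19, chr17:35150224-35152892, with -6.87 ± 0.92, and -3.61 without input drug replicate 1. UNC45B reached the levels for testing and naming only through that library, so -3.61 is not separate support. The J2 values are 2 reads in each library. HFM1 had 54.6 and 37.7 RPM in J2 RNA and 3036 and 293 RPM in the input in intron 4 of 38, chr1:91385835-91394092, with -5.17 ± 0.59, and -2.67 (edgeR adjusted p = 9.87e-08) without that library. SLCO5A1 had 109.6 and 67.4 RPM in J2 RNA and 5763 and 542 RPM in the input, with -5.15 ± 0.59, and -2.61 (edgeR adjusted p = 1.58e-07) without it, in an intron that overlaps an exon on the other strand. Nearly all reads counted at these 3 introns were intronic (at least 99.998% as the mean of a group), so they tell nothing of spliced RNA.

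Of the other introns with most reads, RPL10A, a large-subunit ribosomal protein gene, had 562 and 511 RPM in J2 RNA and 178 and 189 RPM in the input in its most read intron (1.55 ± 0.12, edgeR adjusted p = 3.88e-13), and CSNK1E, casein kinase epsilon, had 227 and 208 RPM in J2 RNA and 111 and 116 RPM in the input (0.94 ± 0.12). Both introns hold another exon of the same gene. CHCHD3, a mitochondrial cristae protein, had 1070.3 and 629 RPM in J2 RNA and 357 and 378 RPM in the input (1.21 ± 0.16, and 0.78 without J2 drug replicate 1), and AMBRA1, an autophagy regulator, had 479.7 and 426 RPM in J2 RNA and 303 and 326 RPM in the input (0.52 ± 0.12, and 0.31 with TMM). Exons of other genes on the same strand lie in these introns, so those genes cannot be told apart from the intron. No difference passed the test in KRT7, a keratin, with 216 and 203 RPM in J2 RNA and 184 and 195 RPM in the input (0.14 ± 0.11, adjusted p = 0.329), nor in CTSD, the protease cathepsin D (0.18 ± 0.11, adjusted p = 0.218) or PLEKHA7, a junction protein (0.13 ± 0.12, adjusted p = 0.397). TMM turned the sign in KRT7 (-0.07), CTSD (-0.04) and PLEKHA7 (-0.08).

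Among 422 genes with at least 4 tested introns, 17 had every tested intron called higher, 1 had every one called lower, and 67 had introns called in both directions. Of all introns tested, 24.5% were higher and 13.0% lower. IFRD2, a member of the interferon-related developmental regulator family, had 10 of 10 tested introns higher, with log2 ratios from 0.99 to 1.64. Its intron 11 had 129.6 and 115 RPM in J2 RNA and 42.9 and 43.6 RPM in the input, and its intron 6, the least recovered of the 10, had 5.98 and 5.64 RPM in J2 RNA and 3.11 and 2.73 RPM in the input. SDCCAG3 had 5 of 5 higher, from 2.30 to 3.54, for example 26.7 and 23.6 RPM in J2 RNA and 3.79 and 3.60 RPM in the input in its intron 4. The others with all introns higher included STK25, PLXNB3, FASTK, JMJD4, SMPD2, POLR2I, YDJC, RPL27A, BTBD6, VPS28, PIM3, P3H4, STUB1 and DDX49. RPS19, a small-subunit ribosomal protein, was the gene with all introns lower, 4 of 4, from -0.83 to -1.10, with 3.52 and 3.66 RPM in J2 RNA and 6.49 and 7.15 RPM in the input in its intron 5. CAPN15 held both directions: its intron 1 had 0.600 and 0.906 RPM in J2 RNA and 2.83 and 2.67 RPM in the input (log2 ratio -1.86), while its intron 7 had 6.28 and 5.09 RPM in J2 RNA and 1.21 and 1.58 RPM in the input (2.02). These genes were named after their values were seen.

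Recovery was highest in short introns. Of 509 introns up to 100 bases, 38.1% were higher and 3.73% lower, with a median log2 ratio of 0.64. The median was 0.52 from 101 to 200 bases, 0.45 from 201 to 500 and 0.25 from 501 to 1000. It was 0.01 from 2001 to 5000 bases, where 19.0% were higher and 20.2% lower, and 0.08 above 20000. Among introns free of other exons, 356 of up to 100 bases had a median of 0.69, no lower than among all. Without drug the same bins had medians from -0.13 (up to 100 bases) to -0.37 (2001 to 5000 bases) and -0.07 (above 20000). Across the 7287 introns, recovery and log length had a Spearman correlation of -0.24. This is a description across introns of the same libraries, which are not independent replicates.

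Recovery also rose with GC content, in the 1312 tested introns whose sequence could be read. Below 50% GC the median log2 ratio was -0.03, with 17.6% of 142 introns higher and 20.4% lower. From 60 to 65% it was 0.62 (3.38% lower) and from 65 to 70% it was 0.72 (48.6% higher, 2.32% lower). The order was alike in introns up to 200 bases (-0.10 from 50 to 55% GC, 0.71 from 65 to 70%) and in longer ones (0.06 and 0.73). Recovery and GC had a Spearman correlation of 0.33 with drug and 0.05 with vehicle. Introns were kept by their level in the drug libraries. The intronic share with vehicle was only 3.80% in J2 RNA and 3.82% in the input. Vehicle ratios thus rest on fewer reads, and the correlations cannot be compared directly. These 1312 introns lie inside annotated exons and had a median GC content of 61.6%, so they do not stand for all introns.

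Of these introns, 939 of at most 500 bases were folded with RNAfold. Sorted by energy per 100 bases into 4 groups of like size, the most stable group had a median log2 ratio of 0.66, the next 0.68, then 0.50, and the least stable 0.33. Stable folding went with GC content (Spearman -0.61 between GC and energy). Among introns of 60 to 65% GC, the 125 with more stable folding had a median of 0.71 and the 125 with less stable folding 0.52. The longest uninterrupted predicted helix in any folded intron was 17 base pairs. Introns whose longest helix had 12 or more base pairs had a median of 0.56, against 0.62 for those with up to 7. The Alu repeat was marked by a motif of 9 letters, GTAATCCCA, searched with its reverse complement TGGGATTAC on either strand, which 5.64% of the introns with sequence carried. The 70 tested introns with the motif on 1 strand had a median of -0.19 (15.7% higher, 21.4% lower), against 0.48 in 1238 with none. Only 4 held it on both strands (median -0.55), too few to describe that class. The motif classes were not matched for intron length or GC content, with both of which recovery differed. A match is not a measured helix, and long introns, where such repeats are common, are mostly missing from this set.

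**Figure D2:**
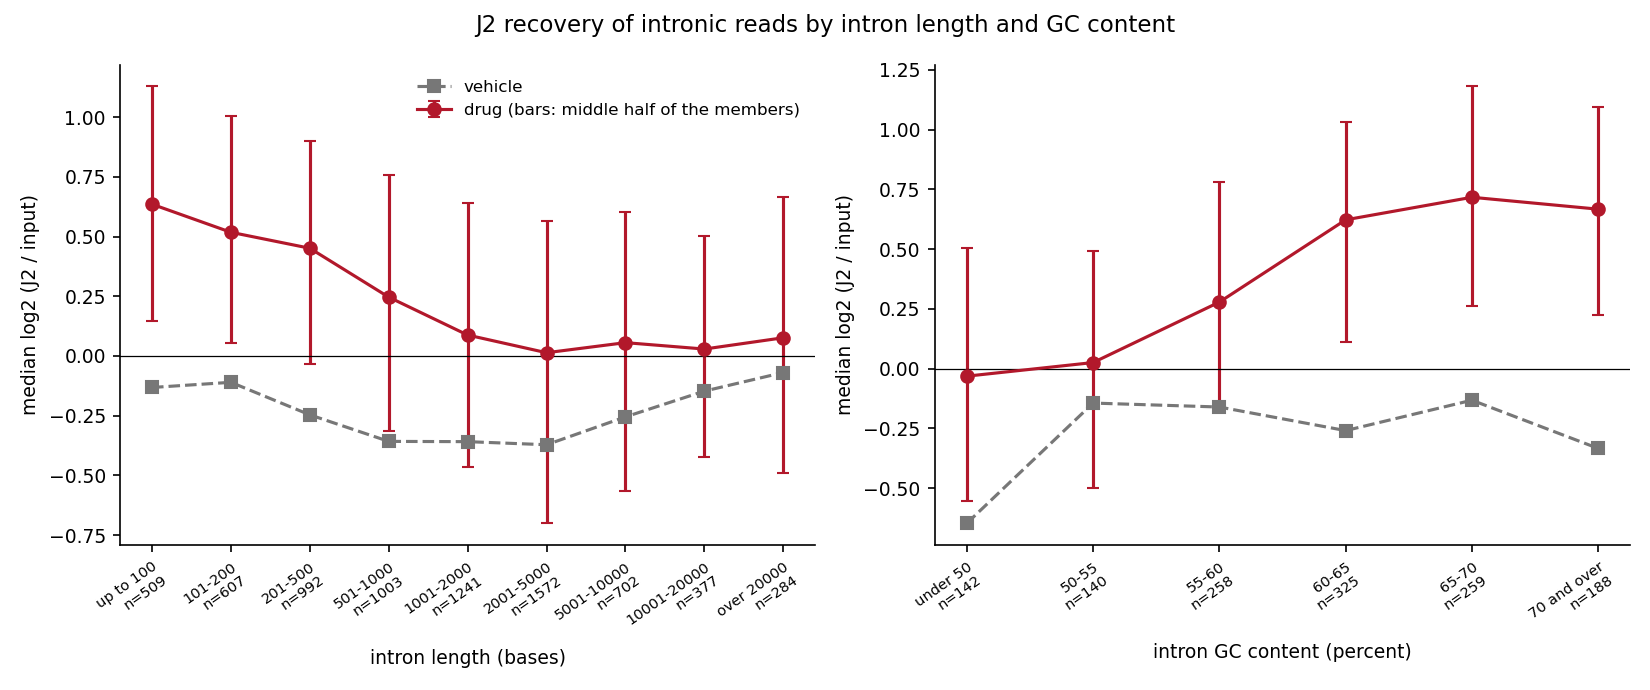
Median log2 J2 recovery of intronic reads (vertical axes) by intron length in bases (left, 7287 introns) and by intron GC content in percent (right, 1312 introns), with drug in red and vehicle in grey. Bars span the 25th to 75th percentile of the introns with drug. The drug medians fall from 0.64 (up to 100 bases) to 0.01 (2001 to 5000 bases) and rise from -0.03 to 0.72 with GC content.

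Medians differed less by position in the gene than by length. First introns had a median log2 ratio of 0.02 (18.1% higher, 18% lower, 1057 introns), internal introns 0.26 and last introns 0.27 (27.9% higher, 11.1% lower). The 44 introns that contain only snoRNA genes were higher in 36.4% and lower in 2.27% of cases, against 24.5% and 13.0% of all introns, but their median of 0.20 was near the 0.22 of introns with no small RNA gene. The 73 that contain a microRNA gene were higher in 24.7% and lower in 15.1%, near the shares of all introns. More introns passed the test where there were more reads: 12.4% were higher from 0.5 to 1 RPM and 60.4% from 10 to 50 RPM, where the median was 0.47. The median was 0.11 from 0.5 to 1 RPM.

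J2 RNA held more spliced reads of 2262 genes (30.2% of 7495) and fewer of 2206 (29.4%), with a median log2 ratio of 0.01, by edgeR with Benjamini-Hochberg adjustment. Of these, 647 and 660 differed by over 2-fold. TMM gave 2614 higher and 2054 lower and median-of-ratios scaling 2559 and 2083. Leaving out a library left between 1773 and 2573 genes higher and between 1710 and 2448 lower, and without J2 drug replicate 2 there were 2065 and 2448. A ratio can rise through more reads in J2 RNA or fewer in the input, so the genes with the largest ratios are given with both levels.

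AMD1, the decarboxylase that supplies polyamine synthesis, had 6.16 and 14.5 RPM in J2 RNA and 1.26 and 0.875 RPM in the input, a log2 ratio of 3.28 ± 0.40 (edgeR adjusted p = 9.95e-05). With vehicle it had 0.660 and 0.526 RPM in J2 RNA and 2.29 and 2.98 RPM in the input, the opposite order. SNX5, a sorting nexin of endosomes, had 26.5 and 46.2 RPM in J2 RNA and 3.91 and 4.35 RPM in the input (3.13 ± 0.23, adjusted p = 4.15e-06) and with vehicle 8.55 and 9.40 RPM in J2 RNA and 14.2 and 14.3 RPM in the input. Input levels in these genes were lower with drug than with vehicle, and J2 levels higher. SLC25A3, the mitochondrial phosphate carrier, had 29.7 and 64.1 RPM in J2 RNA and 7.40 and 7.75 RPM in the input (2.63 ± 0.30). PSMA5, a proteasome subunit, had 10.9 and 17.8 RPM in J2 RNA and 2.28 and 2.73 RPM in the input (2.52 ± 0.23). PPP2R5C, a regulatory subunit of a protein phosphatase, had 11.2 and 18.8 RPM in J2 RNA and 2.13 and 2.58 RPM in the input (2.67 ± 0.24). In all of these J2 drug replicate 2 was well above replicate 1, and both were above the input, as the naming rule required.

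The same held for CCNB1IP1, a ubiquitin ligase gene, with 3.82 and 8.06 RPM in J2 RNA and 0.936 and 0.646 RPM in the input (2.91 ± 0.37), and for DR1, a repressor of transcription, with 4.94 and 9.04 RPM in J2 RNA and 0.957 and 1.12 RPM in the input (2.74 ± 0.32). GPBP1, which binds GC-rich promoters, had 9.96 and 21.4 RPM in J2 RNA and 2.64 and 2.62 RPM in the input (2.58 ± 0.31), and C6orf62 had 12.8 and 22.3 RPM in J2 RNA and 2.96 and 2.60 RPM in the input (2.66 ± 0.24). PABPC1 was the abundant member of the group, with 418 and 529.5 RPM in J2 RNA and 82.0 and 87.5 RPM in the input (2.48 ± 0.10, edgeR adjusted p = 2.72e-07). It was also above the input with vehicle, where it had 222 and 230.0 RPM in J2 RNA and 118 and 114 RPM in the input.

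At the other end, RPS29, a small-subunit ribosomal protein, had 11.6 and 8.06 RPM in J2 RNA and 154 and 209 RPM in the input, a log2 ratio of -4.21 ± 0.19 (edgeR adjusted p = 3.98e-07). RPL37, of the large subunit, had 179.9 and 195 RPM in J2 RNA and 1263 and 1543 RPM in the input (-2.90 ± 0.10, adjusted p = 2.23e-07). OST4, whose first intron was also lower, had 16.7 and 18.2 RPM in J2 RNA and 119.6 and 136 RPM in the input (-2.87 ± 0.10). These 3 were lower in J2 RNA with vehicle too, by less. NOTCH2, a Notch receptor, had 2.22 and 3.45 RPM in J2 RNA and 28.1 and 32.1 RPM in the input (-3.40 ± 0.18), with reads that may be shared with its partial copies. FN1, fibronectin, had 7.70 and 9.26 RPM in J2 RNA and 48.9 and 60.1 RPM in the input (-2.68 ± 0.12). MAP1B, which binds microtubules, had 1.22 and 1.36 RPM in J2 RNA and 11.5 and 10.5 RPM in the input (-3.09 ± 0.18). Their input libraries exceeded their J2 libraries several-fold, and the naming rule allowed no overlap.

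Of the remaining named genes on this side, TANC2, a synaptic scaffold, had 2.28 and 2.87 RPM in J2 RNA and 16.0 and 17.3 RPM in the input (-2.69 ± 0.14), and SP1, a zinc finger transcription factor, had 0.840 and 0.906 RPM in J2 RNA and 5.32 and 5.38 RPM in the input (-2.61 ± 0.20). RAD54L2, a helicase-like protein, had 1.80 and 1.49 RPM in J2 RNA and 9.81 and 9.90 RPM in the input (-2.58 ± 0.18). SLFN5, of the interferon-responsive Schlafen family, had 0.820 and 0.755 RPM in J2 RNA and 5.81 and 5.85 RPM in the input (-2.89 ± 0.21). In each, both J2 libraries lay below both input libraries, as the naming rule required.

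**Figure D3:**
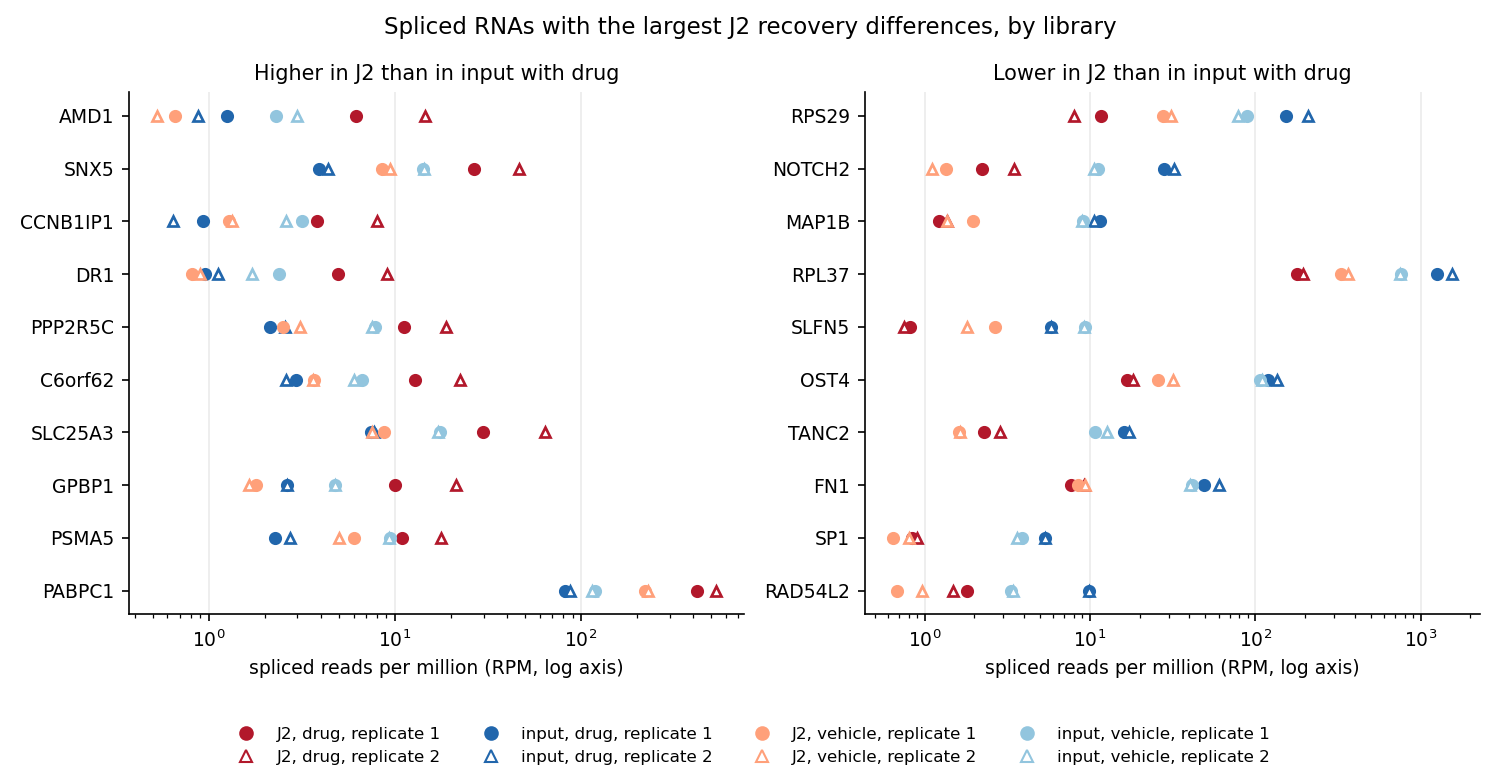
Spliced RPM (log axis) in all 8 libraries for the 10 genes with the highest (left) and the 10 with the lowest (right) J2 recovery with drug that met the naming rule. By that rule J2 drug libraries (dark red) lie above input drug libraries (dark blue) in the left panel and below them in the right. With vehicle (pale) 9 of the 10 genes in the left panel have the opposite order, PABPC1 being the exception. In the right panel J2 is below input with vehicle too.

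Spliced recovery differed with transcript length and GC content, taken from the linked GENCODE transcript of 7338 tested genes. Transcripts up to 600 bases had a median log2 ratio of -0.76, with 9.88% of 81 higher and 66.7% lower. From 2001 to 3000 bases the median was 0.15 (36.3% higher, 22.4% lower), and above 8000 it was -0.27 (17.6% higher, 42.4% lower). With vehicle the fall towards long transcripts was steeper, to -1.14 above 8000 bases. Transcripts from 60 to 65% GC had a median of 0.33 with drug (53.7% higher, 15.5% lower) and those of 65% or more 0.46 (59.3% higher, 11.6% lower). Those from 45 to 50% GC had -0.25, and those under 40% had 0.17. With vehicle the transcripts under 40% had -1.26, against -0.11 at 65% or more. The Alu motif lay after the stop codon on both strands in 2.47% of the 7338 transcripts. These 181 genes had a median of -0.02 (24.9% higher, 27.6% lower), against 0.03 in genes without it, both near the share of all genes. These classes were not matched for length. Among transcripts over 6000 bases, 122 with the motif on both strands had a median of -0.01 (22.1% higher, 26.2% lower). There, 248 with it on 1 strand had -0.17, and 659 with none had -0.24 (18.7% higher, 41.7% lower).

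**Figure D4:**
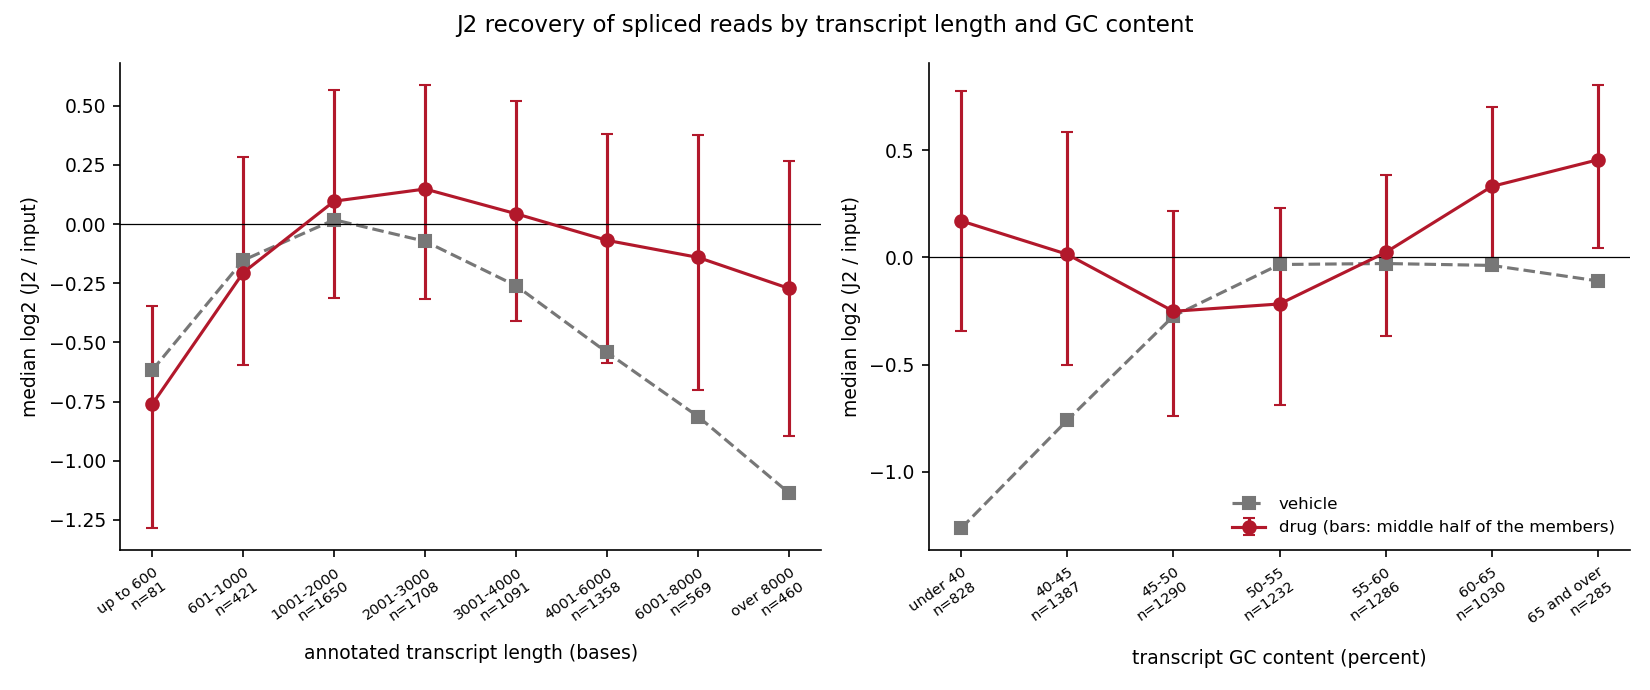
Median log2 J2 recovery of spliced reads (vertical axes) by annotated transcript length in bases (left) and transcript GC content in percent (right) for 7338 genes, with drug in red and vehicle in grey. Bars span the 25th to 75th percentile of the genes with drug. Transcripts under 40% GC have a median of 0.17 with drug and -1.26 with vehicle.

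Of the sensors and signalling proteins that respond to double-stranded RNA, 15 of 23 genes were tested. Of these, 7 had higher and 2 lower spliced reads in J2 RNA, where 30.2% and 29.4% of all genes did. Their median log2 ratio was 0.58, against 0.01 for all genes. EIF2AK2, the kinase PKR, had 1.68 and 2.94 RPM in J2 RNA and 0.638 and 0.833 RPM in the input (1.65 ± 0.33, edgeR adjusted p = 0.00213). TAX1BP1, an adaptor that restrains antiviral signalling, had 7.96 and 14.9 RPM in J2 RNA and 3.26 and 3.15 RPM in the input (1.84 ± 0.25), and IRF3, the transcription factor at the end of the pathway, had 9.64 and 9.15 RPM in J2 RNA and 5.21 and 5.23 RPM in the input (0.85 ± 0.11, and 0.47 with the trend over transcript GC and length removed). J2 libraries were above input libraries in these 3. TANK (1.00), RNF135 (0.73), DHX58 (0.65) and TRAF3 (0.43) were the other higher members. OAS3, which makes the activator of RNase L, had 1.44 and 1.28 RPM in J2 RNA and 3.36 and 4.27 RPM in the input (-1.49 ± 0.20), and TRIM25 had 29.6 and 31.8 RPM in J2 RNA and 55.5 and 62.4 RPM in the input (-0.94 ± 0.07, and -0.45 with that trend removed). DDX58, the sensor RIG-I, had 1.68 and 3.02 RPM in J2 RNA and 1.40 and 1.48 RPM in the input, which did not pass (0.71 ± 0.31, adjusted p = 0.076). The adaptor MAVS (-0.21) and the kinase TBK1 (0.58) did not pass either, and IFIH1 (MDA5) and TLR3 did not reach the level for a test. With vehicle the median of the 15 genes was -0.60, against -0.26 for all genes.

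Of proteins that bind, edit or process double-stranded RNA, 18 of 22 were tested, and 2 were higher and 8 lower, with a median of -0.26. These are 11.1% and 44.4%, against 30.2% and 29.4% of all genes. With vehicle their median was -0.39, below 0 like that of the sensing genes and the -0.26 of all genes. ADAR, the adenosine deaminase that edits double-stranded RNA, had 14.0 and 15.3 RPM in J2 RNA and 32.8 and 38.0 RPM in the input (-1.27 ± 0.09, edgeR adjusted p = 3.26e-06, and -0.75 with the trend over transcript GC and length removed). STAU1, which carries bound mRNA, had 17.5 and 19.2 RPM in J2 RNA and 28.5 and 28.7 RPM in the input (-0.64 ± 0.07). J2 and input libraries did not overlap in either. ZFR (-0.64), XPO5 (-0.64), EXOSC10 (-0.47), SND1 (-0.31, and -0.14 without that trend) and ILF2 (-0.29) were lower as well, while PRKRA (0.72), an activator of PKR, and ADARB1 (0.63) were higher. The microRNA processing enzymes DICER1 (0.35) and DROSHA (-0.07) did not pass. Of 9 tested genes known for edited Alu repeats in their transcripts, EIF2AK2 and MAVS among them, 3 were higher and 2 lower, where 30.2% and 29.4% of all genes were, and without input drug replicate 1 only 1 was higher. PSMB2, a proteasome subunit, had 20.1 and 17.0 RPM in J2 RNA and 46.2 and 55.1 RPM in the input (-1.45 ± 0.11), and MDM4, a p53 inhibitor, had a log2 ratio of 0.63.

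Interferon-stimulated genes were mostly lower, 13 of 21 tested against 4 higher, with a median of -0.34. Of all genes, 29.4% were lower and 30.2% higher. IFITM3, which blocks viral entry, had 89.4 and 94.6 RPM in J2 RNA and 134 and 140.3 RPM in the input (-0.58 ± 0.05, and -0.35 with the trend over transcript GC and length removed). IFI44 (2.17) was the highest member, and the list shares OAS3 with the sensing genes. Of 19 NF-kB and cytokine genes 9 were higher and 3 lower, but 4 and 4 with the trend over transcript GC and length removed. NFKB1, a subunit of NF-kB, had 99.7 and 97.8 RPM in J2 RNA and 56.2 and 61.4 RPM in the input (0.75 ± 0.07), and BIRC3, an inhibitor of apoptosis, had a log2 ratio of 1.37. RELB, another subunit, had 7.40 and 6.75 RPM in J2 RNA and 4.51 and 4.29 RPM in the input (0.68 ± 0.10), but 0.16 (edgeR adjusted p = 0.192) without that trend. TNFAIP3, an inhibitor of the pathway, was lower (-0.99).

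Spliced reads of most genes listed with the complex the drug binds were lower in J2 RNA. The list of 9 is not of SF3b subunits alone, since it includes the associated helicase DDX46. Of these genes 7 were tested, and 6 were lower and none higher, with a median of -0.70, against 29.4% and 30.2% of all genes. SF3B2 had 118 and 115 RPM in J2 RNA and 212 and 223 RPM in the input (-0.90 ± 0.05, edgeR adjusted p = 8.47e-07), and SF3B6, which contacts the branch point, had 22.5 and 28.8 RPM in J2 RNA and 43.3 and 48.2 RPM in the input (-0.84 ± 0.11). DDX46, a helicase, had 5.60 and 8.38 RPM in J2 RNA and 10.8 and 12.5 RPM in the input (-0.73 ± 0.17, and -0.48 without J2 drug replicate 1). SF3B3 had 43.1 and 40.9 RPM in J2 RNA and 62.9 and 73.1 RPM in the input (-0.70 ± 0.08), but -0.11 (edgeR adjusted p = 0.213) with the trend over transcript GC and length removed, where 4 of the 7 were lower. SF3B1, the subunit that H3B-8800 contacts, did not reach the level for a test. Among 44 other spliceosome genes 23 were lower and 4 higher (median -0.34). The higher count was 8 without J2 drug replicate 1, 2 without J2 drug replicate 2, 1 without input drug replicate 1 and 2 without input drug replicate 2. DHX8, a helicase that releases spliced mRNA, had 9.14 and 9.81 RPM in J2 RNA and 26.9 and 31.7 RPM in the input (-1.63 ± 0.10), and SF1, the branch-point binding protein, had 13.8 and 12.6 RPM in J2 RNA and 30.8 and 34.4 RPM in the input (-1.30 ± 0.08). SNRPB2 (1.26) was the highest. Of 35 SR and hnRNP regulators 16 were lower and 6 higher (3 without input drug replicate 1). SRSF3 was lower, with 85.6 and 77.9 RPM in J2 RNA and 148 and 177 RPM in the input (-0.99 ± 0.08).

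Cytosolic ribosomal protein mRNAs were mostly lower, where 29.4% of all genes were lower and 30.2% higher. Of 76 tested, 45 were lower and 19 higher in spliced reads, with a median of -0.61, and -0.15 with 36 lower and 23 higher once the trend over transcript GC and length was removed. RPL12 had 227 and 239 RPM in J2 RNA and 1166 and 1258 RPM in the input (-2.38 ± 0.06), RPLP1 had 213 and 208 RPM in J2 RNA and 613 and 637 RPM in the input (-1.57 ± 0.05, and -0.83 without that trend) and RPL29 had 71.7 and 82.0 RPM in J2 RNA and 381 and 438 RPM in the input (-2.41 ± 0.08). Of 130 tested introns of these genes, 35 were higher and 35 lower, or 31 and 46 with TMM, where 24.5% and 13.0% of all introns were; their median was 0.03 against 0.22 for all introns. Ribosomal protein genes have many near-identical pseudogenes, so part of their reads may belong to copies or be split among them. Extracellular matrix and integrin genes were also low, 28 lower and 6 higher of 46 (median -0.60). COL5A2, a collagen, had 128 and 136 RPM in J2 RNA and 351 and 377 RPM in the input (-1.47 ± 0.06), and THBS1, thrombospondin, had 25.4 and 27.2 RPM in J2 RNA and 76.5 and 85.3 RPM in the input (-1.62 ± 0.07). Of 15 mesenchymal markers, some of which are matrix genes too, 10 were lower and none higher, such as CAV1, caveolin, with 9.24 and 10.4 RPM in J2 RNA and 26.8 and 28.9 RPM in the input (-1.50 ± 0.09).

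Stress-response genes went both ways. Of 27 genes of the integrated stress and unfolded protein responses, 17 were lower and 5 higher in spliced reads (median -0.30). Of all genes 29.4% were lower and 30.2% higher, and of all introns 13.0% and 24.5%. Chaperones and folding enzymes of the endoplasmic reticulum were among the lower genes, with CANX, calnexin, at 75.6 and 86.5 RPM in J2 RNA and 223 and 261 RPM in the input (-1.58 ± 0.09), and with HSPA5 (-0.91), HSP90B1 (-0.86), CALR (-0.83) and PDIA4 (-1.14). TRIB3, a pseudokinase induced by stress, was higher, with 582 and 545 RPM in J2 RNA and 230.1 and 231 RPM in the input (1.29 ± 0.05), as were ASNS, asparagine synthetase (2.02), PPP1R15A (0.71), SHMT2 (0.52) and SESN2 (0.25). ATF4, the transcription factor of the response, had -0.06 and did not pass. In their introns, 12 of 33 tested were lower (7 without input drug replicate 2) and 1 higher, with a median of -0.71 against 0.22 for all introns.

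**Figure D5:**
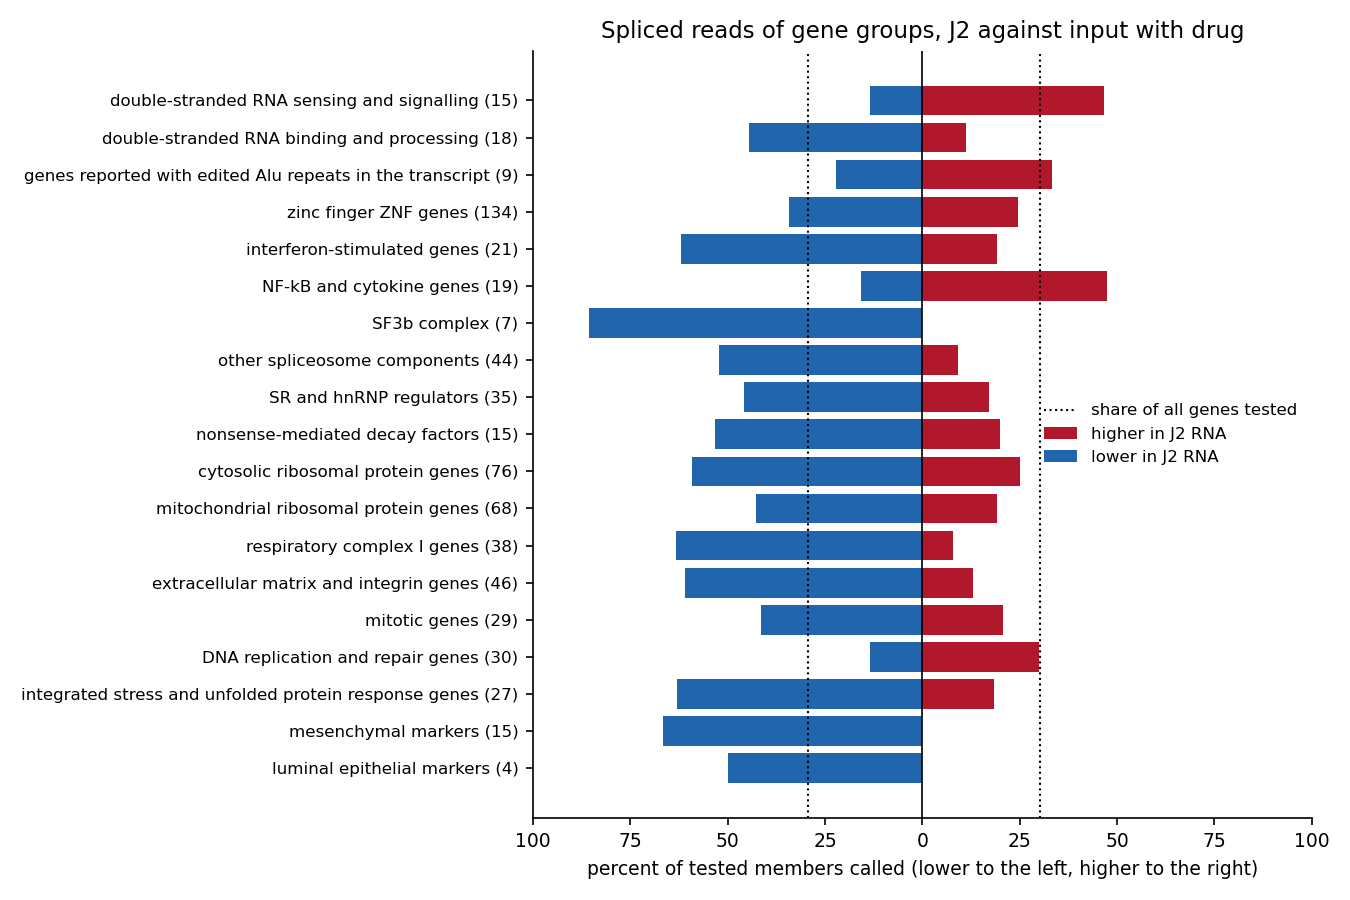
Percent of the tested members of each gene group (number in brackets) whose spliced reads were called lower (blue, to the left) or higher (red, to the right) in J2 RNA with drug. Dotted lines mark the shares of all 7495 genes, 29.4% lower and 30.2% higher. The SF3b group, which includes the associated helicase DDX46, has 6 of 7 members lower and none higher, and double-stranded RNA sensing genes have 7 of 15 higher.

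For each gene, intronic reads were also set against spliced reads inside the same library, a ratio that does not depend on depth. J2 RNA had a higher ratio in 263 genes (7.77% of 3385 tested) and a lower one in 245 (7.24%), with a median of 0.01, by limma with Benjamini-Hochberg adjustment. These calls rest on all 4 libraries. Without J2 drug replicate 1 there were 63 higher and 85 lower, without J2 drug replicate 2 there were 52 and 47, without input drug replicate 1 there were 41 and 42, and without input drug replicate 2 only 4 and 5. Introns free of other exons gave 42 and 51 among 1900 genes.

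Without input drug replicate 2 so few genes passed that a call lost there says little of a gene. CLIC4, RPL30 and AMMECR1L were among the genes that kept theirs whichever drug library was left out. CLIC4, an intracellular chloride channel protein, had an intronic share of 38.6 and 34.0% in J2 RNA and 6.62 and 6.43% in the input (log2 ratio 3.02 ± 0.18, limma adjusted p = 0.0022). RPL30 had a share of 56.8 and 60.4% in J2 RNA and 21.7 and 19.7% in the input (2.44 ± 0.17, adjusted p = 0.0022). AMMECR1L had 4.22 and 2.86% in J2 RNA and 31.3 and 23.1% in the input (-3.24 ± 0.30, adjusted p = 0.00328). No J2 library overlapped an input library in these 3 genes, which the naming rule required of CLIC4 and AMMECR1L. ERN1, the stress sensor IRE1, had 86.3 and 86.3% in J2 RNA and 49.7 and 47.0% in the input (2.75 ± 0.18), but mostly in intron 1, which holds another ERN1 exon, and the ratio was 1.00 (limma adjusted p = 0.0597) with introns free of exons. In RPL30 the spliced reads were 117 and 107 RPM in J2 RNA and 483 and 571 RPM in the input, a log2 ratio of -2.23, while its introns ranged from -1.89 to 1.63.

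Other large ratios missed the threshold with 1 library less, and their size there stands beside each. RPS29 had an intronic share of 54.3 and 62.8% in J2 RNA and 11 and 10.1% in the input (3.58 ± 0.30, limma adjusted p = 0.00328, and 3.51 with adjusted p = 0.0509 without input drug replicate 2), while its only tested intron had lower reads in J2 RNA (-0.64). RTN4, a reticulon of the endoplasmic reticulum, had 4.64 and 2.39% in J2 RNA and 24.5 and 29.1% in the input (-3.38 ± 0.42, adjusted p = 0.00598, and -3.22 with 0.0660 without input drug replicate 2). MAEA had 10.5 and 10.6% in J2 RNA and 43.8 and 47.7% in the input (-2.80 ± 0.33, and -2.68 with limma adjusted p = 0.0623 without input drug replicate 2). CSRP1 and ZFP36L1 had -3.06 ± 0.29 and -2.81 ± 0.34, and -2.92 and -2.81 with adjusted p of 0.0509 and 0.0623 without that library. TOMM6, of the mitochondrial import pore, had 27.1 and 29.3% in J2 RNA and 6.28 and 4.56% in the input (2.78 ± 0.37), with 2.71 (adjusted p of 0.0520) without J2 drug replicate 2 and 2.54 (0.0661) without input drug replicate 2. ZSWIM6 (2.68 ± 0.41) had 2.26 and 2.13 without the same libraries (adjusted p of 0.0636 and 0.0661). PMM2, an enzyme of glycosylation, had -3.16 ± 0.47, and -2.58 without J2 drug replicate 2 (adjusted p of 0.0510), -3.16 without input drug replicate 1 (0.0650) and -3.15 without input drug replicate 2 (0.0783). TFG, a protein of early secretory traffic, had 9.74 and 16.4% in J2 RNA and 1.66 and 1.42% in the input (3.16 ± 0.75, limma adjusted p = 0.0348) and between 2.73 and 3.58 without 1 of the 4 (adjusted p of 0.0949 to 0.185).

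By group, cytosolic ribosomal protein genes had a higher ratio in 24 of 58 tested and a lower one in 2, where 7.77% and 7.24% of all genes did. Their median was 0.57, against 0.01 for all genes. Without J2 drug replicate 1 these were 10 and 1, without J2 drug replicate 2 they were 8 and 0, without input drug replicate 1 they were 7 and 0, and without input drug replicate 2 they were 1 and 0. The median stayed between 0.55 and 0.62. Matrix and integrin genes had 5 higher and none lower of 24 (median 0.52), and between 0 and 1 higher with a drug library left out: 1 each without J2 drug replicate 1, J2 drug replicate 2 or input drug replicate 1, and 0 without input drug replicate 2. TRIB3, with its high spliced reads, had a lower ratio, with 0.226 and 0.149% in J2 RNA and 1.08 and 1.28% in the input (-2.68 ± 0.25, limma adjusted p = 0.00328, and 0.0509 without input drug replicate 2).

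Intronic and spliced recovery of a gene mostly went together. Of 1709 higher introns whose gene was tested for spliced reads, the spliced reads were higher for 1206, lower for 141 and not called for 362. Of 889 lower introns they were lower for 459, higher for 175 and not called for 255. Across 6919 introns the 2 log2 ratios had a Spearman correlation of 0.46, a description only, since both come from the same libraries and introns of a gene share their spliced reads. Among genes chosen after their values were seen, IFRD2 had spliced reads with a log2 ratio of 1.59 beside its 10 higher introns, and SDCCAG3 1.75. VEGFA had spliced reads of 31.3 and 31.3 RPM in J2 RNA and 45.1 and 51.0 RPM in the input (-0.62 ± 0.07), a smaller difference than in its intron 3. CSRP1 had 61.5 and 60.9 RPM in J2 RNA and 49.6 and 49.6 RPM in the input (0.30 ± 0.05, edgeR adjusted p = 0.000714), higher in J2 RNA while its intron 2 was lower.

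Recovery with drug was compared with recovery with vehicle through the interaction term of the same fits, which include all 8 libraries. It differed for 995 introns (13.7%), 851 higher and 144 lower with drug, and for 3951 genes in spliced reads (52.7%), 2790 higher and 1161 lower, by edgeR. For the ratio, 404 genes differed by limma (11.9%), 266 higher and 138 lower. The direction of these splits depends on scaling: median-of-ratios scaling gave 301 higher and 413 lower introns, 1739 and 1996 genes for spliced reads, and 129 and 209 for the ratio, where intronic and spliced reads were scaled apart. The median difference was 0.51 for introns and 0.27 for spliced reads, and 0.03 and -0.03 with that scaling. A difference that did not pass does not show equal recovery. PIP5K1C had a log2 ratio of 3.92 with vehicle (difference not called, edgeR adjusted p = 0.657), and its intron had 1.40 and 1.12 RPM in J2 RNA and 0.125 and 0.0392 RPM in the input. SLC9B2 had -0.62 with vehicle and a difference that passed (adjusted p = 2.41e-08). NOTCH2 had -3.16 in spliced reads with vehicle (difference not called, adjusted p = 0.472), and EIF2AK2 had -1.78 (called, adjusted p = 0.000389).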

How the data were processed

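Values come from 4 drug and 4 vehicle libraries of polyadenylated RNA from a stranded kit, per the labels' protocols. Alignment used HISAT2 2.0.4, and hg38 is listed with mm10 as a build, per the submitters' processing notes. The counting program, strand setting and choice of introns are not given in the sources used here, so reads of overlapping antisense genes were treated as not separable. Per intron the authors deposited 3 values: a count of intronic reads, a count that is never below it, and an RPKM. No header names them. The second deposited count minus the first was read as spliced reads, an inference from the values, and the RPKM gave the library depth used as library size. In each library 18 introns lack the second count. RPM here is reads per 1000000 of that depth.

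Introns (mean of the drug libraries at least 0.5 RPM) and spliced reads summed per gene (at least 1 RPM) were tested with edgeR 4.0.16, and log2 of (intronic reads + 1) over (spliced reads + 1) per gene with limma 3.58.1 in R 4.3.3. All 8 libraries entered 1 fit with 4 group means. Benjamini-Hochberg adjustment ran over every feature tested in a comparison (threshold 0.05). With 2 libraries a group, they measure the spread between duplicates. For edgeR the SE is the log2 ratio over the square root of F, not a separately estimated error. The code was tested on simulated data. DESeq2 1.42.0, other scalings and filters and each library left out were alternatives. Introns of 15509 genes were matched to GENCODE 29, sequences were read from its transcripts, and RNAfold 2.7.2 gave folding.

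Named introns and genes were the largest ratios past the threshold with the same sign in all 4 library pairs, for introns free of exons of another gene and 1 a gene, up to 10 each way (6 for the ratio, 2 RPM for introns and 5 RPM for genes in 1 group), plus the introns with most reads and up to 4 list members (2 for the ratio) with the smallest p. SLCO5A1, HFM1, ADAR, DDX58 and EIF2AK2 were always included, and list members given without library values illustrate their list. Members and gene lists were chosen with earlier results of these data known. No control-antibody library was used here. Some genes and 1 sequence that these rules name are not reported here.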

Additional observations from a re-analysis of the deposited data

Results flagged for a closer look

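The named results below stood out because recovery with drug differed from recovery with vehicle past the threshold of the interaction test (edgeR, or limma for the ratio). Each number is the log2 recovery with drug minus that with vehicle. For introns the values above 0 were SLC9B2 (4.51), LRRC37B (3.10), TRIO (3.07), DKK3 (3.52), SMURF2 (3.89), CDC42BPA (3.78), RPL10A (0.65), CTSD (1.11) and CSNK1E (0.65), and those below 0 were UNC45B (-6.92), HFM1 (-5.54), TFDP1 (-1.35), SLCO5A1 (-5.40) and PLEKHA7 (-0.85). The median over all introns tested was 0.51, so RPL10A and CSNK1E lie near it. UNC45B, HFM1 and SLCO5A1 rest in part on input drug replicate 1. Their J2 vehicle libraries also lay far apart, at 0.0755 and 0.702, 39.9 and 268, and 69.6 and 459 RPM. These differences therefore rest in part on single libraries in both treatments. In CTSD and PLEKHA7 recovery with drug was itself not called (0.18 and 0.13), and recovery with vehicle was -0.93 and 0.98.

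For spliced reads the values above 0 were AMD1 (5.43), SNX5 (3.80), CCNB1IP1 (4.05), DR1 (4.0), PPP2R5C (4.11), C6orf62 (3.45), SLC25A3 (3.71), GPBP1 (4.05), PSMA5 (3.28), PABPC1 (1.52), DDX58 (2.75) and EIF2AK2 (3.42). In the 9 genes from AMD1 to PSMA5 and in EIF2AK2, recovery was above 0 with drug and below 0 with vehicle. DDX58 had -2.04 with vehicle and 0.71 with drug, the last not called, and PABPC1 was above 0 in both. Values below 0 were RPS29 (-2.70), RPL37 (-1.78), SLFN5 (-0.83), OST4 (-0.95), FN1 (-0.48) and ADAR (-0.56), and these genes were below the input in both treatments. For the ratio they were RPS29 (3.05), TFG (5.14), CLIC4 (1.60), AMMECR1L (-2.75) and MAEA (-2.12). Levels of the input changed with the drug in many of these genes, so a difference in recovery alone does not show which level changed. In AMD1 and SNX5, as given above, input levels were lower with drug than with vehicle and J2 levels higher.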

How the results depend on the processing

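Of 167 named values, 151 passed the threshold. Over 1981 alternatives for them, 1830 kept direction and side, 124 fell short of the threshold, 15 newly passed and 12 turned sign; the cause was not tested. Counts of introns were 1787 higher and 945 lower. DESeq2 gave 1033 higher and 888 lower, a filter of 5 RPM 524 and 131, and a filter of 0.1 RPM 1894 and 1567. Introns free of other exons gave 972 higher and 425 lower, and sums per gene 1069 and 826. The filters and sums test other numbers of features. Removing the trend over intron length gave 1349 and 1178. Leaving out 1 library gave 1117 to 1301 higher and 513 to 681 lower. For the ratio, a filter of 0.1 RPM gave 78 higher, a filter of 5 RPM 94 lower, the 4 drug libraries alone 441 and 409, introns free of other exons 42 and 51, and leaving out 1 library 4 to 63 higher and 5 to 85 lower.

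Whether J2 and input libraries of the same replicate number were paired is not known. Their deviations had a correlation of -0.04 for introns and -0.11 for spliced reads with drug. A weak correlation over all features cannot settle pairing. The replicate block gave 1620 and 856 introns, 2225 and 2204 genes, 201 and 188 ratios, and 238 ratios differing from vehicle; a crossed pairing, added after seeing the data, gave 2211 and 2178 genes. Scaling and block for the comparison with vehicle were also added after seeing the data.

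Signs turned in these cases. PLEKHA7's intron had -0.0752 with TMM, -5.77e-05 with median-of-ratios scaling, -0.000139 with DESeq2 and -0.0214 to 0.306 with 1 library left out (the lowest without input drug replicate 1). With TMM, KRT7's intron had -0.0695, CTSD's -0.0356 and GATA3's spliced reads 0.00739; the last ranged from -0.138 to 0.0117 with 1 library left out (the highest without J2 drug replicate 2). SF3B3's ratio had 0.0171 with pseudocount 5, and with 1 library left out -0.189 to 0.17, turning at 0.17 without J2 drug replicate 2 and 0.09 without input drug replicate 1. KRT8's spliced reads had -0.21 with the transcript trend removed. A trend over intron GC was not run, because only 1312 of the tested introns had a sequence. The share of introns called higher was 12.4% from 0.5 to 1 RPM, where depth is lowest, and with vehicle 425 introns were higher and 1103 lower.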

Other observations

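Several further gene groups were measured in spliced reads with drug. Each is to be read against the shares of all genes, 30.2% higher and 29.4% lower. Respiratory complex I genes were lower in 24 of 38 tested and higher in 3, with a median log2 ratio of -0.54. The higher count was 1 without J2 drug replicate 2 or input drug replicate 1, and 7 were higher and 17 lower with the trend over transcript GC and length removed (median -0.15). NDUFS5, an accessory subunit, had 7.12 and 6.83 RPM in J2 RNA and 19.9 and 24.5 RPM in the input (-1.67 ± 0.11, edgeR adjusted p = 2.87e-06, and -0.83 without that trend). NDUFV1, a core subunit, had 95.9 and 91.1 RPM in J2 RNA and 54.7 and 57.9 RPM in the input (0.73 ± 0.05, and 0.36 without it). Mitochondrial ribosomal proteins were lower in 29 of 68 and higher in 13 (median -0.22), from MRPL33 with 1.44 and 1.25 RPM in J2 RNA and 4.79 and 5.42 RPM in the input (-1.93 ± 0.16, and -1.21 without the trend) to MRPS7 with 41.4 and 38.4 RPM in J2 RNA and 18.9 and 19.6 RPM in the input (1.05 ± 0.07). Nonsense-mediated decay factors were lower in 8 of 15 and higher in 3 (median -0.36), for example EIF4A3, of the exon junction complex, with 20.2 and 19.9 RPM in J2 RNA and 35.3 and 42.6 RPM in the input (-0.96 ± 0.09), and SMG5 with 125 and 114 RPM in J2 RNA and 72.0 and 75.4 RPM in the input (0.70 ± 0.06).

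Zinc finger genes with a ZNF symbol were lower in 46 and higher in 33 of 134 tested (median -0.14). These are 34.3% and 24.6%, near the 29.4% and 30.2% of all genes. ZNF598, a sensor of collided ribosomes, had 31.2 and 30.4 RPM in J2 RNA and 13.9 and 13.2 RPM in the input (1.18 ± 0.06), and ZNF609 had 6.28 and 6.68 RPM in J2 RNA and 21.0 and 22.2 RPM in the input (-1.74 ± 0.12, and -1.15 without the trend). Mitotic genes were lower in 12 of 29 and higher in 6 (median -0.11), with MAD2L1, a spindle checkpoint protein, at 54.9 and 48.6 RPM in J2 RNA and 23.3 and 23.4 RPM in the input (1.15 ± 0.08). DNA replication and repair genes were higher in 9 of 30 and lower in 4 (median 0.04), where 30.2% of all genes were higher and 29.4% lower. Without input drug replicate 1 these were 3 and 4, and 7 were lower without J2 drug replicate 1 or 2. USP1, a deubiquitinase of DNA repair, had 2.56 and 4.83 RPM in J2 RNA and 0.851 and 0.896 RPM in the input (2.08 ± 0.35). Luminal markers had 2 of 4 lower, KRT18 (-0.38) and XBP1 (-0.19). KRT18 lost its call without input drug replicate 2 (edgeR adjusted p = 0.0924), and XBP1 when J2 drug replicate 1 or input drug replicate 2 was left out (adjusted p of 0.0508 and 0.0605) and with TMM (0.0729). CD68, the only immune marker tested, was lower (-0.58).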
